A study of Arabidopsis thaliana with 32 samples.

Results

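Salicylic acid is a plant defence hormone, and 10 Arabidopsis thaliana genes that make it, pass on its signal or answer to it were followed here through roots and rosettes of 4 lines that differ in iron signalling. The genes, listed by name for their roles, are PR1 (AT2G14610), PR2 (AT3G57260), PR5 (AT1G75040), PAD3 (AT3G26830), ICS1 (AT1G74710), EDS5 (AT4G39030), CBP60G (AT5G26920), PAD4 (AT3G52430), ALD1 (AT2G13810) and FMO1 (AT1G19250). They were chosen with earlier results of these data known. All 10 were found among the 33607 genes of the deposited tables. The EYFP line carries a yellow fluorescent protein behind the constitutive 35S promoter and was the control for every other line. No wild type is among the samples, so a difference to EYFP may lie in the EYFP line or in the other line. IMA1 OE and IMA3 OE are transgenic lines for IRON MAN 1 and IRON MAN 3, small peptides known to promote iron uptake. The opt3-2 line carries a T-DNA insertion at OPT3, a phloem transporter of iron. Seedlings of each line grew for 10 days on full ES medium and were taken 72 h after transfer to full ES medium (control) or to ES medium without iron and with the iron chelator ferrozine. The labels give ferrozine as 100 µM in the treatment protocol and as 300 µM in the series design. Each of the 16 groups had 2 libraries, 32 in all, and the labels do not say whether the 2 came from separate cultures. The p-values therefore reflect the spread of the libraries at hand, which may be technical. The 35S promoter acts in most tissues, and the labels do not give the number of independent transgenic lines.

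In the leaf, isochorismate made by ICS1 in the plastid is exported by EDS5 and turned into salicylic acid in the cytosol, and CBP60G is a transcription factor known to switch ICS1 on. PAD4 acts with EDS1 upstream of the hormone. ALD1 and FMO1 make N-hydroxypipecolic acid, a mobile signal of systemic acquired resistance. PR1, PR2 (a beta-1,3-glucanase) and PR5 (a thaumatin-like protein) encode secreted proteins and are classical leaf readouts of the hormone. PAD3 encodes the cytochrome P450 that completes camalexin, the main phytoalexin of this plant.

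Levels are in RPKM, which corrects a read count for gene length and for the size of the library, and the read depth is unknown because the tables hold no counts. Each printed level is a library's mean over the deposited tables that hold it, while fold changes and counts of non-overlapping groups come from the comparison's own table. The IMA1 OE construct was at 199 to 329 RPKM in the IMA1 OE libraries. OPT3 itself was lower in opt3-2 on control medium by a log2 fold change of -1.74 ± 0.31 (SE) in roots and -3.80 ± 0.29 in rosettes (limma, adjusted p = 0.0218 and 0.000351). The IMA3 gene was higher in IMA3 OE roots (log2 fold change 4.68 ± 0.34, limma adjusted p = 0.000225), but in IMA3 OE rosettes on control medium it was at 14.8 and 12.7 RPKM against 48.3 and 9.85 RPKM in EYFP. The construct of that line was at 32.04 and 27.11 RPKM in the same IMA3 OE libraries. For the rosette samples, 1 label names roots as the source, and the titles and the tissue label, which name rosettes, were followed. The 4 leaf markers summed to 14372 to 22083 RPKM in the rosette libraries and to 36.3 to 182 RPKM in the root libraries, and CASP1, an endodermis marker, was at 73.7 to 100 RPKM in roots and at 0.11 to 1.1 RPKM in rosettes.

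PR2 and PR5 were among the genes with the widest differences described below, so the 300 bases before their annotated starts are shown, from RefSeq on assembly TAIR10.1. Capitals mark TTGAC (the core of the W-box that WRKY factors bind) or TGACG (the core bound by TGA factors) on either strand, the reverse complements being GTCAA and CGTCA. Positions are counted from -1 at the base before the start.
The PR2 window (chr3:21189968-21190267, minus strand) holds 1 TTGAC at -265, which overlaps 1 TGACG at -264.
PR2: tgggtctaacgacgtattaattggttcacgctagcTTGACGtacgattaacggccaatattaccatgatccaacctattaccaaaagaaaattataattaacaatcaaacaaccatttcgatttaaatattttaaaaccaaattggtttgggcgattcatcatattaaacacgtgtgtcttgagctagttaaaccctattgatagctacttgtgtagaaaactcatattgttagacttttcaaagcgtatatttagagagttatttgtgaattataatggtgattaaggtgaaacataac
The PR5 window (chr1:28177370-28177669, plus strand) holds 1 TTGAC on the opposite strand, at -165.
PR5: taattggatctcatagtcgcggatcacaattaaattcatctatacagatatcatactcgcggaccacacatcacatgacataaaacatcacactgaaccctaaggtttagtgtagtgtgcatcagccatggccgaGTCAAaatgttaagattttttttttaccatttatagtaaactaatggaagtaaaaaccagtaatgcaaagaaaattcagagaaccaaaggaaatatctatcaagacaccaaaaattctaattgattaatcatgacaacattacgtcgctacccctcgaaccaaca
Over the 9 members whose windows were searched, TTGAC stood in 3 windows and in 50.4% of the 27443 windows of protein-coding genes. TGACG stood in 1 of the 9 and in 21.3% of the 27443. A match is a run of letters and not a measured binding site.

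The 3 PR genes were leaf transcripts in these libraries. PR1 was at 0.015 to 0.095 RPKM in the 16 root libraries and at 2.76 to 115 RPKM in the 16 rosette libraries. PR2 was at 0.01 to 0.345 RPKM in roots and at 3.81 to 267 RPKM in rosettes, and PR5 at 0.01 to 0.185 RPKM in roots and at 5.06 to 85.6 RPKM in rosettes. Roots and rosettes were normalized in separate tables, so these ranges are set side by side with no test. PR1, PR2 and PR5 did not reach the mean of 0.5 RPKM required for testing in roots, and ALD1 and FMO1 did not reach it in rosettes, which left 7 of the 10 genes tested in roots and 8 in rosettes.

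On control medium, PR1 was low in EYFP rosettes and high in the other lines. Its values were 2.76 and 20.7 RPKM for EYFP, 113 and 93.0 RPKM for IMA1 OE, 72.6 and 25.4 RPKM for IMA3 OE and 38.7 and 115 RPKM for opt3-2. Every library of the other lines lay above both EYFP libraries, while the 2 EYFP libraries stood well apart from each other. On the log2(RPKM + 0.5) scale the difference to EYFP was 3.60 ± 0.95 (SE) in IMA1 OE, 2.39 ± 0.95 in IMA3 OE and 3.00 ± 0.95 in opt3-2, a 12.1-fold, 5.24-fold and 8.02-fold higher level. After Benjamini-Hochberg adjustment over the 19521 genes tested in rosettes, the limma adjusted p was 0.297, 1 and 0.349, so none passed the threshold of 0.05. The 3 comparisons share the same 2 EYFP libraries, and the sizes rest on them. Without a wild type, a low level in the EYFP line cannot be told apart from a raised level in the other lines. Without EYFP replicate 1 the PR1 differences were 2.25, 1.04 and 1.67 on the log2 scale, and without EYFP replicate 2 they were 4.95, 3.74 and 4.34.

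PR2 was highest in opt3-2. Its level in rosettes on control medium was 10.2 and 12.5 RPKM in the EYFP control, 107 and 63.7 RPKM in IMA1 OE, 41.6 and 17.3 RPKM in IMA3 OE and 102 and 267 RPKM in opt3-2. Here the 2 EYFP libraries were close to each other and below every other library. The log2 fold change was 3.82 ± 0.81 in opt3-2 (95% interval 2.03 to 5.61, limma adjusted p = 0.12), 2.79 ± 0.81 in IMA1 OE (adjusted p = 0.38) and 1.22 ± 0.81 in IMA3 OE (adjusted p = 1). PR5 was at 6.68 and 9.98 RPKM in the EYFP control, 36.0 and 29.9 RPKM in IMA1 OE, 22.3 and 8.12 RPKM in IMA3 OE and 46.4 and 85.6 RPKM in opt3-2. Only IMA3 OE overlapped EYFP among the 3 lines. The log2 fold change of PR5 was 2.87 ± 0.63 in opt3-2 (limma adjusted p = 0.133), 1.91 ± 0.63 in IMA1 OE (adjusted p = 0.478) and 0.70 ± 0.63 in IMA3 OE (adjusted p = 1).

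**Figure D1:**
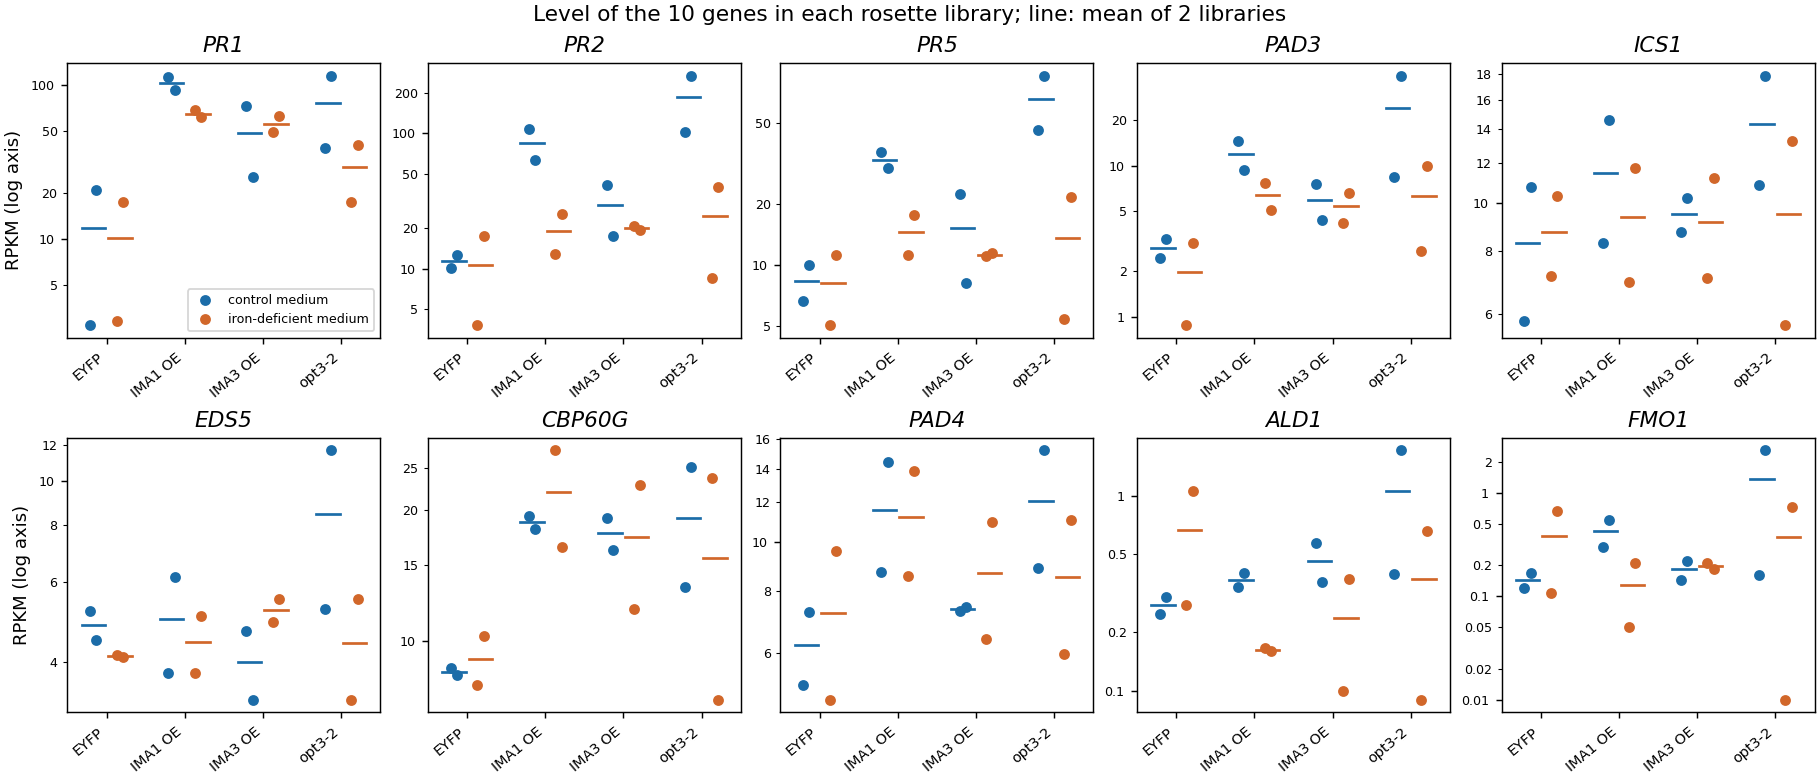
Level of each of the 10 genes in the 16 rosette libraries, in RPKM on a log axis, by line and medium; points are libraries and bars are means of 2 libraries. In PR1, the EYFP libraries on control medium sit at 2.76 and 20.7 RPKM, below the 6 libraries of the other lines on that medium, and in PR2 the opt3-2 libraries on control medium sit at 102 and 267 RPKM.

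PAD3, the camalexin enzyme, was spread like the PR genes at a lower level. On control medium it was at 2.46 and 3.27 RPKM in EYFP rosettes, 14.5 and 9.31 RPKM in IMA1 OE, 7.52 and 4.34 RPKM in IMA3 OE and 8.43 and 39.4 RPKM in opt3-2. No library of the 3 lines fell into the EYFP range, and the 2 opt3-2 libraries differed most. The log2 fold change was 1.83 ± 0.72 in IMA1 OE, 0.90 ± 0.72 in IMA3 OE and 2.49 ± 0.72 in opt3-2 (limma adjusted p = 0.661, 1 and 0.293).

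Upstream of the PR genes, CBP60G, the activator of ICS1, was at 8.65 and 8.35 RPKM in EYFP rosettes on control medium, at 19.4 and 18.1 RPKM in IMA1 OE, at 19.2 and 16.2 RPKM in IMA3 OE and at 13.3 and 25.2 RPKM in opt3-2. All 6 libraries lay above EYFP, with log2 fold changes of 1.07 ± 0.49, 1.01 ± 0.49 and 1.07 ± 0.49. Their limma adjusted p-values were 0.748, 1 and 0.627. ICS1, which makes the hormone's precursor, ranged from 5.70 to 17.9 RPKM over the 16 rosette libraries, and its differences to EYFP were 0.42 ± 0.45, 0.24 ± 0.45 and 0.77 ± 0.45 in IMA1 OE, IMA3 OE and opt3-2 on the log2 scale. The exporter EDS5 ranged from 3.31 to 11.7 RPKM, and its highest value was in an opt3-2 library on control medium. Its log2 fold change was -0.02 ± 0.35, -0.25 ± 0.35 and 0.65 ± 0.35 in the same order. PAD4 was at 5.18 and 7.26 RPKM in EYFP and at 8.88 and 15.2 RPKM in opt3-2, with a log2 fold change of 0.87 ± 0.42. In IMA1 OE the change of PAD4 was 0.79 ± 0.42. ALD1 and FMO1, the N-hydroxypipecolic acid enzymes, stayed at 0.09 to 1.71 and 0.01 to 2.58 RPKM in rosettes, and their highest values were in replicate 2 of opt3-2 on control medium. That 1 library held the highest of the 16 rosette values for 9 of the 10 genes, CBP60G being the exception.

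Read together, 0 of the 8 tested members passed in each line on control medium, where 0.0666%, 0% and 0.174% of all tested genes passed in IMA1 OE, IMA3 OE and opt3-2. At an unadjusted p under 0.05 the members counted 4, 1 and 4 of 8, against 6.78%, 3.19% and 8.07% of all genes. In IMA1 OE and opt3-2 the 4 were PR1, PR2, PR5 and PAD3, and in IMA3 OE it was PR1. Both libraries of the line lay above both EYFP libraries for 6, 5 and 8 of the 8 members, against 13.1%, 12% and 12.6% of all genes. The median log2 fold change of the 8 members was 1.45, 0.80 and 1.78, beside -0.04, -0.02 and -0.05 over all tested genes. With the p-values of the authors' deposited tables, adjusted the same way, PR1, PR2 and PR5 passed in IMA1 OE, PR1 in IMA3 OE, and PR1, PR2, PR5 and PAD3 in opt3-2, where 0.569%, 0.215% and 0.891% of all genes passed. Those p-values are named only as from a Z-test, and how it used the spread between replicate libraries is unknown. When the replicate number was fitted as a block in limma, PR2 and PR5 passed in opt3-2, where more of all genes passed too. RNA from whole rosettes cannot tell more transcript per cell from more cells of a responding kind.

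On iron-deficient medium, PR1 still separated the IRON MAN lines from EYFP. It was at 2.92 and 17.4 RPKM in EYFP rosettes, at 68.4 and 62 RPKM in IMA1 OE, at 49.8 and 62.4 RPKM in IMA3 OE and at 17.5 and 41.0 RPKM in opt3-2. The opt3-2 libraries were nearest to EYFP. The log2 fold change was 3.06 ± 0.95 in IMA1 OE, 2.86 ± 0.95 in IMA3 OE and 1.797 ± 0.95 in opt3-2 (limma adjusted p = 0.343, 1 and 1). PR2, at 3.81 and 17.4 RPKM in EYFP, was at 12.8 and 25.4 RPKM in IMA1 OE and at 8.46 and 40.3 RPKM in opt3-2, so these groups overlapped. In IMA3 OE it was at 20.5 and 19.3 RPKM, above both EYFP libraries. PR5, at 5.06 and 11.3 RPKM in EYFP, was at 11.25 and 17.7 RPKM in IMA1 OE and at 5.45 and 21.7 RPKM in opt3-2. The IMA1 OE libraries of PR5 lay above EYFP in the comparison's own table and touched the EYFP range in these averaged levels.

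PAD3 and CBP60G kept their order in IMA1 OE on the deficient medium. PAD3 was at 0.879 and 3.08 RPKM in the EYFP control, 7.67 and 5.11 RPKM in IMA1 OE, 4.19 and 6.54 RPKM in IMA3 OE and 2.71 and 9.94 RPKM in opt3-2. Its log2 fold change was 1.61 ± 0.72, 1.39 ± 0.72 and 1.38 ± 0.72, and only opt3-2 overlapped EYFP. CBP60G was at 7.92 and 10.3 RPKM in the EYFP control and at 27.5 and 16.5 RPKM in IMA1 OE, a log2 fold change of 1.197 ± 0.49 (limma adjusted p = 0.567). In IMA1 OE, IMA3 OE and opt3-2, 0 of 8 members passed, where 0.528%, 0.0359% and 0.0461% of all genes did. At an unadjusted p under 0.05 the members counted 3, 1 and 0, against 7.82%, 3.59% and 3.34% of all genes. Both libraries lay above both EYFP libraries in the comparison's own table for 4, 5 and 0 members, against 14.3%, 10.3% and 11% of all genes. With the p-values of the authors' deposited tables, PR1 passed in IMA1 OE and in IMA3 OE and no member passed in opt3-2, where 0.932%, 0.507% and 0.394% of all genes passed.

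**Figure D2:**
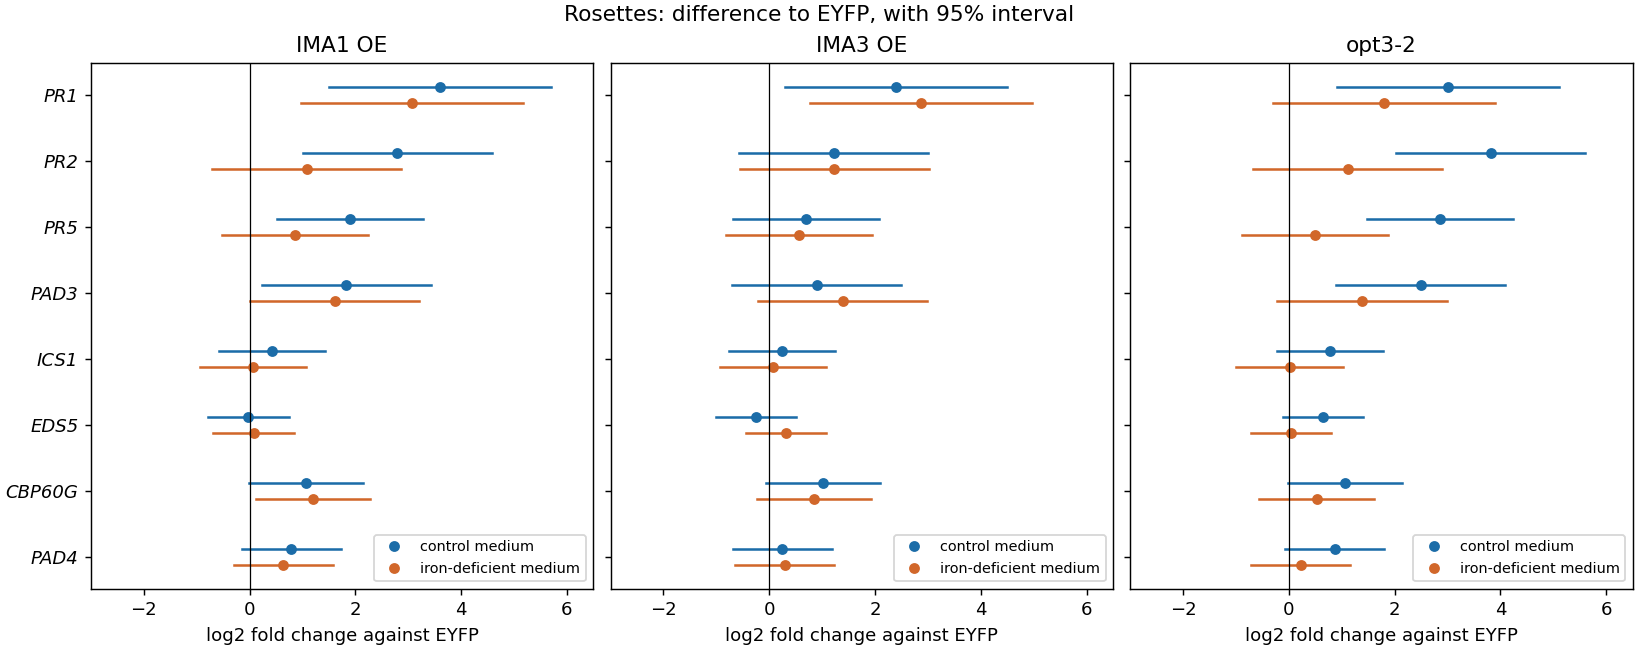
Log2 fold change of the 8 tested members in rosettes of each line against EYFP on control and iron-deficient medium; points are estimates and lines are 95% intervals from the shared spread. The interval of PR2 in opt3-2 runs from 2.03 to 5.61 on control medium and from -0.68 to 2.90 on deficient medium.

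Averaging each line's difference to EYFP over both media, a comparison added after the values were seen, brought 1 member past the threshold. PR1 rose in IMA1 OE rosettes by a log2 fold change of 3.33 ± 0.67 (limma adjusted p = 0.0405), and all 4 IMA1 OE libraries lay above all 4 EYFP libraries. The call was lost without EYFP replicate 1 on either medium and without any 1 of the 4 IMA1 OE libraries. Without EYFP replicate 1 on control medium the log2 fold change was 2.66 ± 0.62, and over all alternatives tried the limma adjusted p ran from 0.012 to 0.146. This was 1 of 8 members in IMA1 OE, where 1.41% of all genes passed, and 0 of 8 in IMA3 OE and opt3-2, where 0.0512% and 0.292% passed. At an unadjusted p under 0.05 the members counted 6, 3 and 5, against 13.5%, 5.77% and 9.52% of all genes. PR1, PAD3 and CBP60G were in all 3 of these counts. Their differences to EYFP were 2.63 ± 0.67, 1.14 ± 0.51 and 0.93 ± 0.35 in IMA3 OE on the log2 scale. In IMA1 OE and in IMA3 OE, these same 3 genes had all 4 libraries of the line above all 4 EYFP libraries. Of all genes, 5.09% and 1.94% separated this way. In opt3-2 0 members did, against 1.98% of all genes. Below EYFP in the same way lay 0 members in every line.

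Within opt3-2, the PR genes were lower on deficient than on control medium. PR2 went from 102 and 267 RPKM on control medium to 8.46 and 40.3 RPKM on deficient medium, a log2 change of -3.14 ± 0.81 (limma adjusted p = 0.29). PR5 went from 46.4 and 85.6 to 5.45 and 21.7 RPKM, a log2 change of -2.48 ± 0.63 (adjusted p = 0.277). In both genes the groups did not overlap, and neither change passed. PR1 changed by -1.30 ± 0.95 and PAD3 by -1.72 ± 0.72 on the log2 scale, with overlapping groups. EDS5, at 5.25 and 11.7 RPKM on control medium and at 3.31 and 5.50 RPKM on deficient medium, changed by -0.83 ± 0.35. In IMA1 OE, PR2 went from 107 and 63.7 RPKM to 12.8 and 25.4 RPKM, a log2 change of -2.14 ± 0.81 (limma adjusted p = 1), and PR1 changed by -0.63 ± 0.95. In EYFP itself the changes of the 8 members lay between -0.61 and 0.14, and in IMA3 OE between -0.42 and 0.38.

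In this response to the deficient medium, 0 of 8 members passed in EYFP, IMA1 OE, IMA3 OE and opt3-2 by limma, where 0.338%, 0%, 0.0359% and 0.22% of all genes passed. At an unadjusted p under 0.05 they counted 0, 1, 0 and 4, against 2.53%, 1.37%, 1.23% and 5.7% of all genes, and the 4 in opt3-2 were PR2, PR5, PAD3 and EDS5, all lower. The difference of the opt3-2 response to the EYFP response was -2.70 ± 1.15 for PR2 (95% interval -5.23 to -0.18) and -2.37 ± 0.88 for PR5 (-4.32 to -0.42), with a limma adjusted p of 1 for both. For this difference of responses, 0 of 8 members passed in IMA1 OE, IMA3 OE and opt3-2, where 0.00512%, 0% and 0% of all genes passed. The unadjusted counts were 0, 0 and 2, against 1.86%, 1.29% and 2.24% of all genes.

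**Figure D3:**
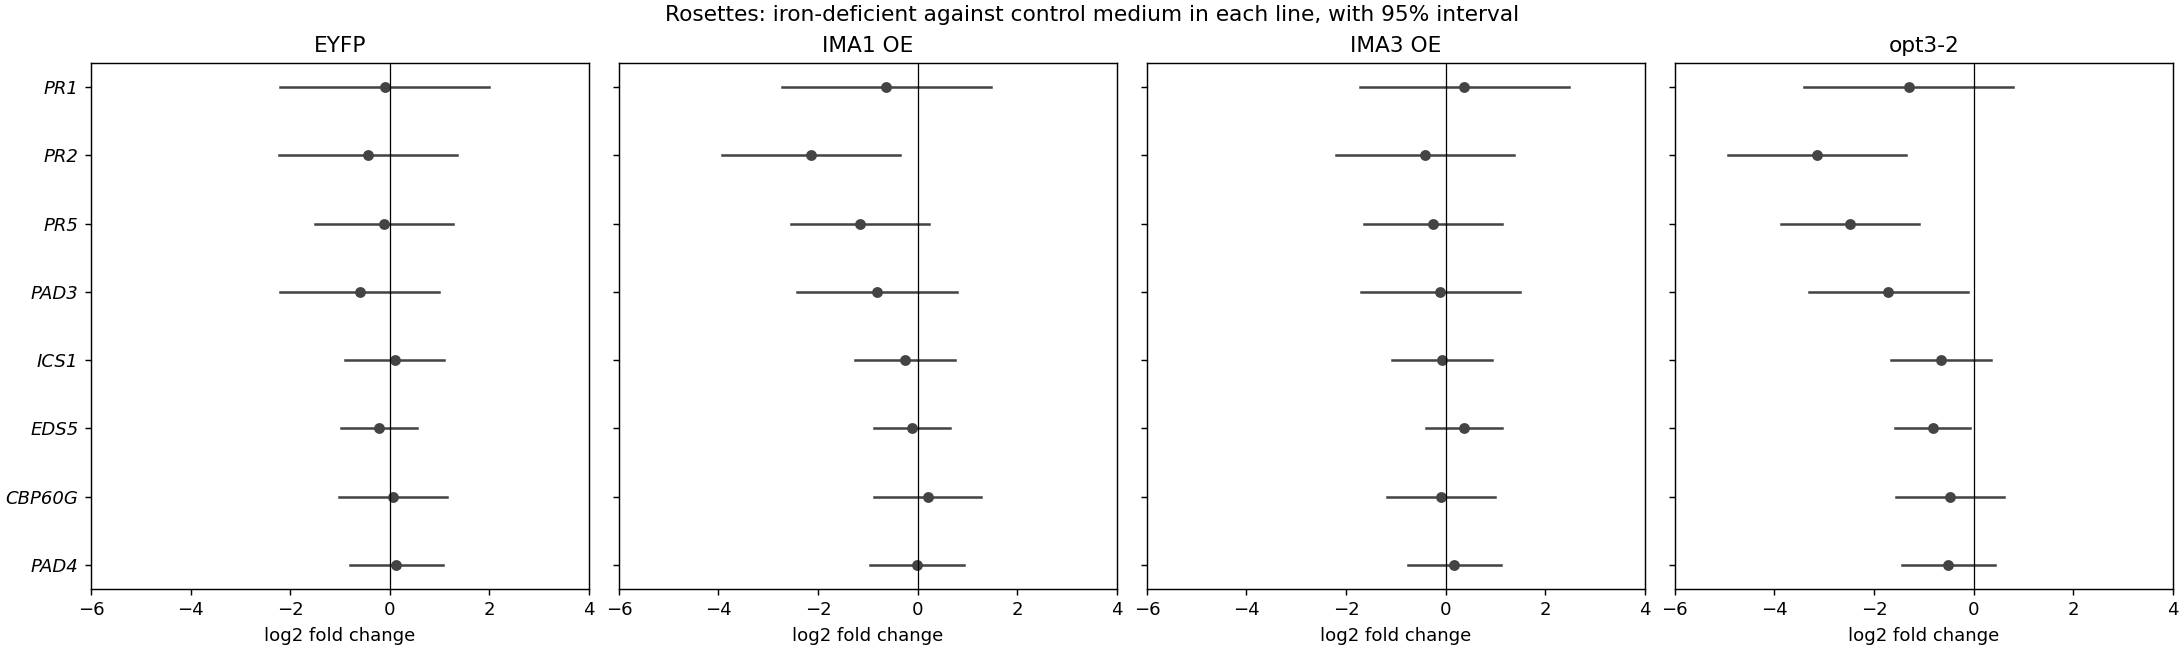
Log2 fold change of the 8 tested members in rosettes on iron-deficient against control medium within each line; points are estimates and lines are 95% intervals. The estimates lie between -0.61 and 0.14 in EYFP, and PR2 in opt3-2 lies at -3.14.

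In roots, the 7 tested members were measured in every library. EDS5 was at 15.3 to 18.9 RPKM over the 16 root libraries, PAD4 at 13.0 to 19.6 RPKM, PAD3 at 9 to 18.9 RPKM, ICS1 at 4.14 to 6.52 RPKM, CBP60G at 1.11 to 2.74 RPKM, FMO1 at 0.895 to 3.31 RPKM and ALD1 at 0.103 to 1.46 RPKM. FMO1 was highest in EYFP roots on deficient medium. It was at 1.34 and 2.06 RPKM in EYFP on control medium and at 2.37 and 3.31 RPKM on deficient medium, a log2 change of 0.64 ± 0.23 (limma adjusted p = 0.255). PAD4 went from 13.0 and 15.2 to 17.5 and 18.1 RPKM, a log2 change of 0.35 ± 0.11 (adjusted p = 0.187). ICS1 went from 5.43 and 4.91 to 6.19 and 6.52 RPKM, a log2 change of 0.30 ± 0.13 (adjusted p = 0.34). The media groups did not overlap in these 3 genes. In the table of this comparison both deficient libraries lay above both control libraries for 6 of the 7 tested members, against 19% of all genes. ALD1 was the exception, and EDS5 was among the 6 although its averaged levels, 15.7 and 16.7 RPKM against 18.5 and 16.5 RPKM, overlapped.

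On deficient medium FMO1 was lower in the other lines' roots than in EYFP. It was at 1.43 and 1.30 RPKM in IMA1 OE, at 1.24 and 1.27 RPKM in IMA3 OE and at 0.895 and 1.21 RPKM in opt3-2, all below the EYFP values of 2.37 and 3.31 RPKM. The log2 fold change was -0.83 ± 0.23, -0.88 ± 0.23 and -1.101 ± 0.23 (limma adjusted p = 0.623, 0.218 and 0.275). The 3 comparisons share the EYFP libraries in which FMO1 was highest. In their own tables both libraries lay below both EYFP libraries for 4, 3 and 4 of the 7 members. Of all genes, 15%, 18.4% and 14.5% did so. The reverse held for 0, 1 and 0 members, against 16%, 14.2% and 16% of all genes. ICS1 in opt3-2, at 4.14 and 5.04 RPKM, had a log2 fold change of -0.45 ± 0.13 (adjusted p = 0.626).

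PAD3 had the largest log2 fold change of the 7 root members on control medium in IMA1 OE and opt3-2, and CBP60G had it in IMA3 OE (0.45 ± 0.29). PAD3 was at 10.5 and 12.0 RPKM in the EYFP control, 13.0 and 17.1 RPKM in IMA1 OE, 12.8 and 12.8 RPKM in IMA3 OE and 16.5 and 18.9 RPKM in opt3-2. Every library of the 3 lines lay above EYFP, and the log2 fold change in opt3-2 was 0.62 ± 0.15 (limma adjusted p = 0.101). Such separation held for 4, 2 and 4 of the 7 members in IMA1 OE, IMA3 OE and opt3-2. Of all genes, 14%, 16.3% and 18.4% separated this way. The reverse held for 1, 0 and 0 members, against 16.1%, 20.8% and 24% of all genes. On deficient medium PAD3 was at 12.1 and 13.4 RPKM in the EYFP control, 9 and 11.9 RPKM in IMA1 OE and 11.9 and 11.7 RPKM in opt3-2. Within opt3-2 the log2 change from control to deficient medium was -0.54 ± 0.15 (adjusted p = 0.188), and within IMA1 OE it was -0.48 ± 0.15 (adjusted p = 0.318). The opt3-2 response minus the EYFP response was -0.74 ± 0.21 for PAD3 and -0.83 ± 0.33 for FMO1 (limma adjusted p = 0.297 and 0.54).

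In the 16 root comparisons 0 of 7 members passed. When the replicate number was fitted as a block, PAD3 or FMO1 passed in some comparisons of opt3-2 and IMA1 OE, given in the last section. The shares and counts that follow are without that block. For the EYFP response 2.58% of all genes passed, and 3 members (FMO1, PAD4 and ICS1) against 12.8% of all genes had an unadjusted p under 0.05. For IMA1 OE, IMA3 OE and opt3-2 against EYFP on control medium 0.369%, 0.204% and 0.972% of all genes passed, and the unadjusted counts were 1, 1 and 2 against 5.37%, 7.16% and 11%. On deficient medium 0.131%, 0.131% and 0.0875% of all genes passed, and the counts were 1, 1 and 2 against 4.66%, 7.18% and 4.99%. For the responses within these lines 1.12%, 0.695% and 0.86% of all genes passed, and the counts were 1, 0 and 1 against 6.88%, 5.87% and 8.79%. For their responses minus that of EYFP 0.068%, 0.131% and 0.433% passed, and the counts were 1, 1 and 4 against 4.04%, 5.38% and 8.29%. Over both media 0.34%, 0.326% and 0.593% passed, and the counts were 1, 1 and 3 against 6.1%, 8.97% and 7.65%. With the p-values of the authors' deposited tables, 0 members passed in the EYFP response and in the 6 comparisons of a line with EYFP in roots.

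**Figure D4:**
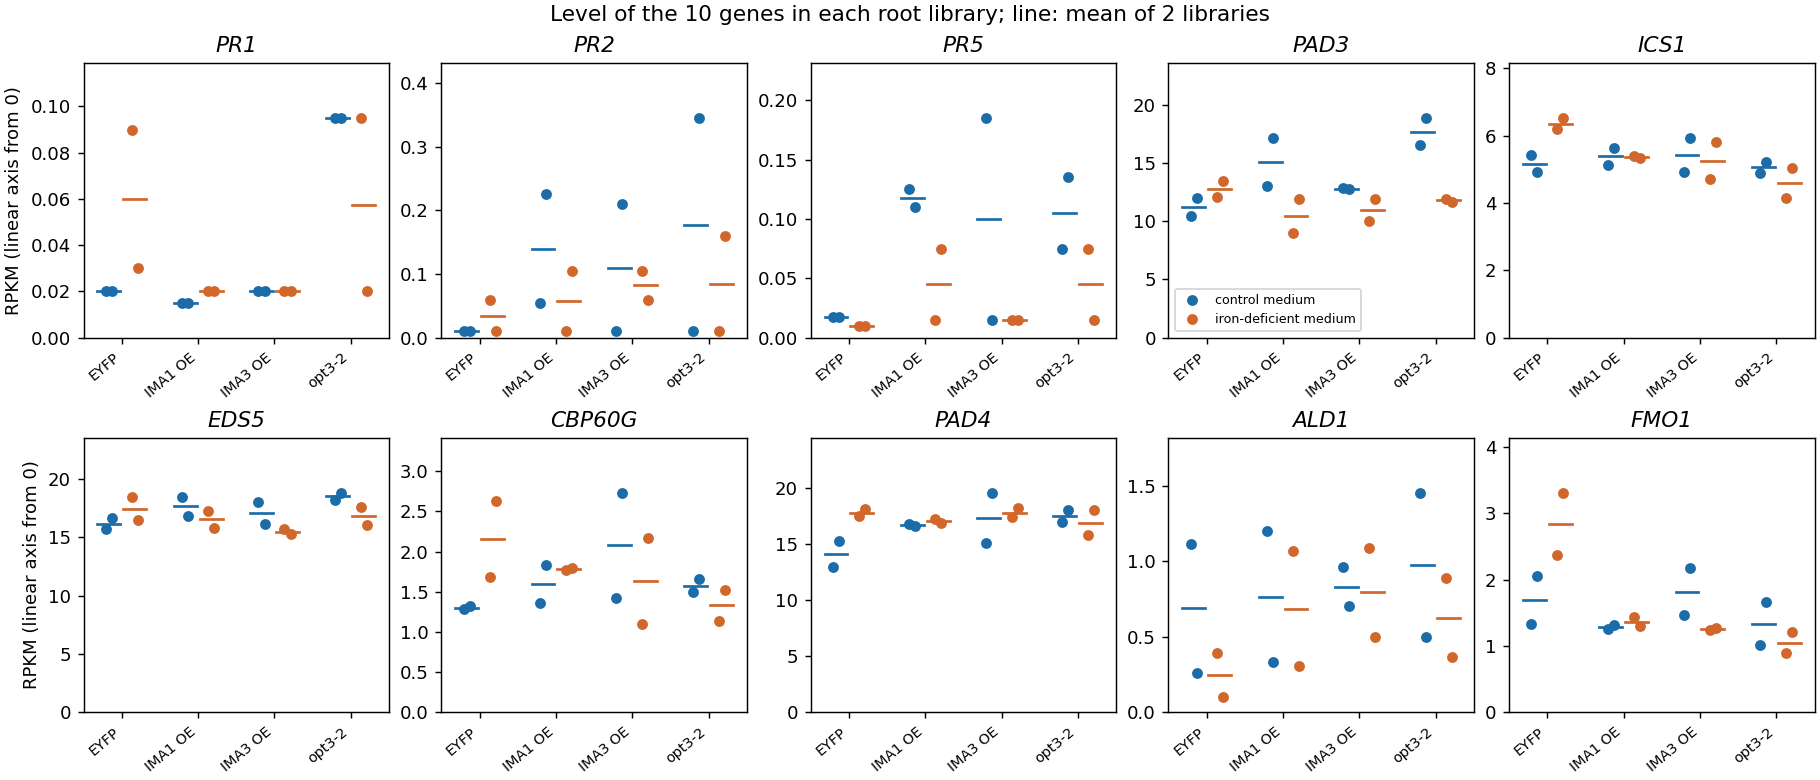
Level of each of the 10 genes in the 16 root libraries, in RPKM on a linear axis from 0, by line and medium; points are libraries and bars are means of 2 libraries. FMO1 in EYFP on deficient medium sits at 2.37 and 3.31 RPKM, above the other lines on that medium, and PR1 reaches at most 0.095 RPKM.

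Beyond the members, 50 further genes were counted in 7 lists, of which 38 were tested in roots and 47 in rosettes. Beside salicylate genes the lists hold camalexin genes and other PR genes such as PR3 and PR4. Those PR genes were not listed as salicylate-responsive, so their changes are not read as changes of that pathway. The lists were chosen with earlier results of these data known, and the line comparisons on a medium share 2 EYFP libraries. In rosettes on control medium 0 of the 47 passed in any line. In IMA1 OE, IMA3 OE and opt3-2, 18, 7 and 19 of them had an unadjusted p under 0.05, all higher, beside 6.78%, 3.19% and 8.07% of all genes in either direction. Their median log2 fold change was 0.65, 0.38 and 0.74, beside -0.04, -0.02 and -0.05 over all genes. Within the lists, the 10 tested salicylate-responsive genes (WRKY factors, LURP1, ACD6 and others) were above 0 in all 3 lines, with medians of 1.203, 0.56 and 1.12. The 6 genes of salicylate synthesis, its transport and its regulators had medians of 0.13, 0.13 and 0.12. Among these 6, SARD1, a close relative of CBP60G, had a log2 fold change of 1.22 ± 0.49 in IMA1 OE and 1.13 ± 0.49 in opt3-2 without passing. On deficient medium, PR3, a basic chitinase, rose in IMA1 OE and IMA3 OE by 1.79 ± 0.18 and 1.42 ± 0.18 (limma adjusted p = 0.000944 and 0.0402), where 0.528% and 0.0359% of all genes passed. It went from 0.526 and 0.671 RPKM in EYFP to 3.50 and 3.15 RPKM in IMA1 OE and to 1.99 and 2.87 RPKM in IMA3 OE.

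The comparison over both media was added after the values were seen, and its list genes were not followed singly with a library left out. In it, 8 of the 47 rose in IMA1 OE rosettes and none fell, where 1.41% of all genes passed. They were DMR6 and CYP71A12, WRKY70 and LURP1, the salicylate receptors NPR3 and NPR4, PRB1 (a basic relative of PR1) and PR3. DMR6, a salicylate hydroxylase, rose by 1.35 ± 0.23 and WRKY70 by 1.51 ± 0.26 on the log2 scale (limma adjusted p = 0.0173 for both). PRB1 rose by 1.04 ± 0.18 (adjusted p = 0.0216). In opt3-2, where 0.292% of all genes passed, DMR6 and the camalexin enzyme CYP71A12 rose, CYP71A12 by 2.86 ± 0.48 (limma adjusted p = 0.0422). Reads of CYP71A12 may be shared with its close copy CYP71A13, so its value is uncertain. In IMA3 OE, where 0.0512% passed, PR3 rose by 1.001 ± 0.13 (limma adjusted p = 0.0307).

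**Figure D5:**
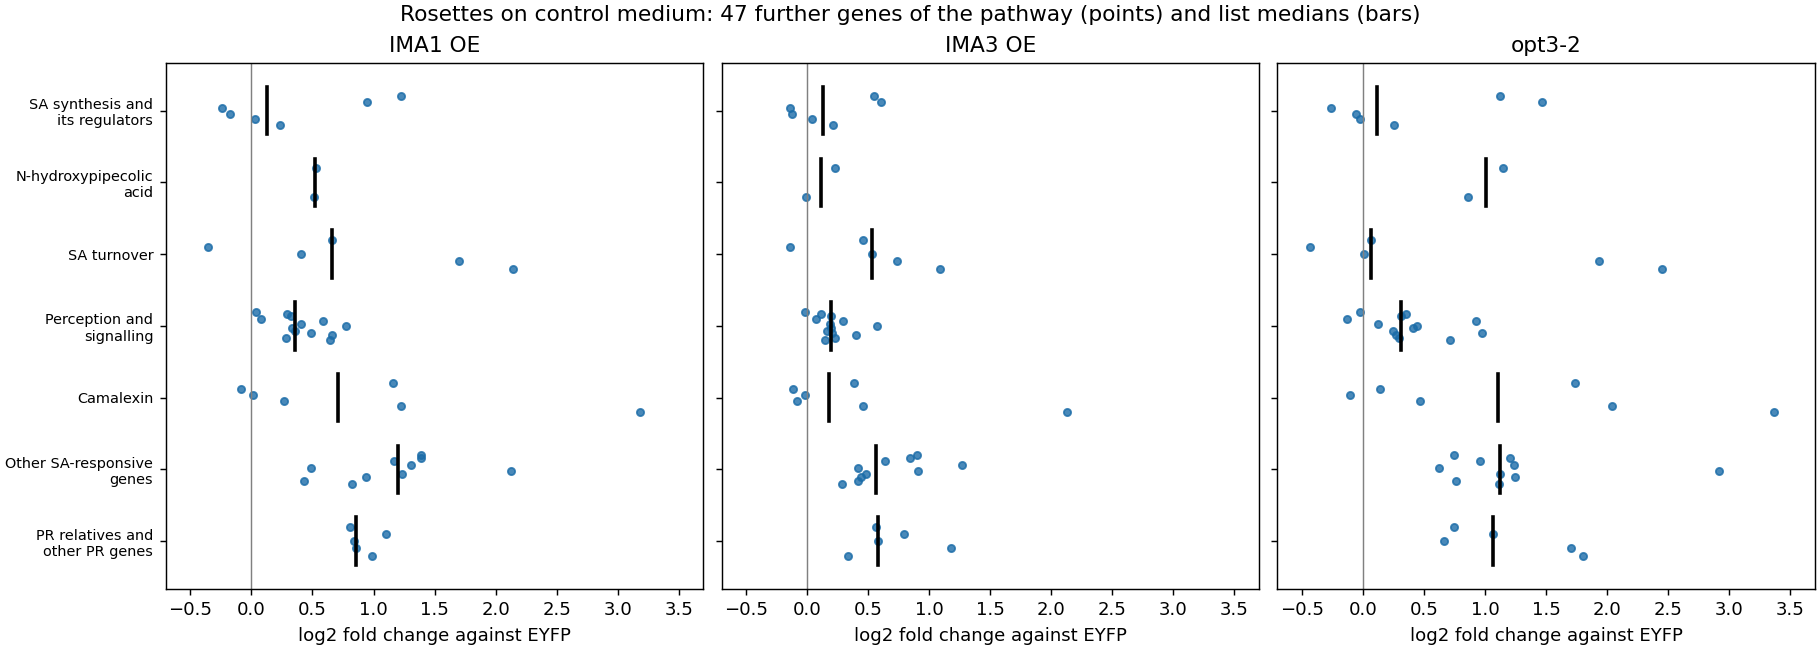
Log2 fold change against EYFP of the 47 tested list genes outside the 10 members, in rosettes on control medium, by list and line; points are genes and bars are list medians (SA, salicylic acid). The medians of the list of other SA-responsive genes are 1.203, 0.56 and 1.12 in IMA1 OE, IMA3 OE and opt3-2.

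In roots, 2 of the 38 tested list genes rose in EYFP on deficient medium, WRKY62 and TGA3, where 2.58% of all genes passed. WRKY62, a salicylate-responsive factor, rose in EYFP on deficient medium by 2.18 ± 0.20 (limma adjusted p = 8.95e-05), from 0.139 and 0.274 RPKM to 2.65 and 2.65 RPKM. The EYFP control values of WRKY62 lay under the 0.5 RPKM required of the mean. Its median over the 16 root libraries was 0.40 RPKM and its mean 0.93 RPKM. WRKY62 thus entered the test through the libraries where it was high, so its calls are to be read with care. It also rose within IMA1 OE and opt3-2, by 1.58 ± 0.20 and 1.79 ± 0.20, and on deficient medium it was lower in IMA3 OE than in EYFP by a log2 fold change of -1.46 ± 0.20 (limma adjusted p = 0.0252). TGA3, a partner of the NPR proteins, rose in EYFP on deficient medium by 0.42 ± 0.09 (limma adjusted p = 0.0365). PR4 rose in opt3-2 on control medium by 0.81 ± 0.12 and fell within opt3-2 on deficient medium by a log2 change of -0.73 ± 0.12 (limma adjusted p = 0.00616 and 0.0152). GSTF6, a glutathione transferase, fell there by -1.91 ± 0.37 (limma adjusted p = 0.0407). Of all genes, 0.131% passed in IMA3 OE on deficient medium, 0.972% in opt3-2 on control medium, and 1.12% and 0.86% in the responses of IMA1 OE and opt3-2. Over both media, in the comparison added after the values were seen, PR4 rose in IMA3 OE by 0.49 ± 0.08 (limma adjusted p = 0.0371). There PR3 and PR4 rose in opt3-2 by 0.60 ± 0.12 and 0.59 ± 0.08 (limma adjusted p = 0.048 and 0.00824). Of all genes, 0.326% and 0.593% passed in IMA3 OE and opt3-2.

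Across the 16 rosette libraries the 8 tested members varied together. The correlation of each with the members' mean z score, which contains the member itself, ran from 0.527 for CBP60G to 0.949 for PAD3. The 5 other genes most like that mean were RLP23 (r = 0.978), CRK36 (0.976), SDR3 (0.975), AT3G28580 (0.969) and AT4G00700 (0.968). These are descriptions over libraries that share lines and media. In roots the 7 tested members varied less closely, from -0.254 for ALD1 to 0.75 for CBP60G, and the most like gene was NLP7 (r = 0.831). In rosettes the level of ICS1 and of PAD4 was higher in replicate 2 than in replicate 1 in 8 of 8 groups, and in roots CBP60G was higher and ALD1 lower in replicate 2 in 8 of 8 groups.

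Senescing leaves also raise some defence genes, so 8 senescence markers were read beside the rosette values. SAG13 was higher in opt3-2 on control medium by a log2 fold change of 3.69 ± 0.60 and in IMA1 OE on deficient medium by 3.48 ± 0.60 (limma adjusted p = 0.0468 and 0.0293). It was at 0.449 and 2.20 RPKM in EYFP and at 12.5 and 33.4 RPKM in opt3-2 on control medium. SAG12, the marker most specific to late senescence, was at 0.01 to 0.06 RPKM in every rosette library. The 8 markers summed to 67.6 to 82.7 RPKM in EYFP on control medium, 110 to 135 RPKM in IMA1 OE, 99.7 to 119 RPKM in IMA3 OE and 86.0 to 132 RPKM in opt3-2. These sums lay above the EYFP range in each other line, while on deficient medium every line's range overlapped that of EYFP. On control medium 1 of the 6 tested (SAG13) passed in opt3-2 and none in IMA1 OE or IMA3 OE. Of all genes, 0.174%, 0.0666% and 0% passed there. On deficient medium, where SAG13 passed in IMA1 OE, 0.528% of all genes passed. The part of the senescence markers in the PR values was not tested. The 6 wounding and jasmonate markers summed to 277 to 507 RPKM in EYFP, 273 to 411 RPKM in IMA1 OE, 258 to 470 RPKM in IMA3 OE and 372 to 428 RPKM in opt3-2 on control medium, overlapping throughout. The 5 root markers summed to 82.2 to 188 RPKM over all rosette libraries, of which BGLU23 made up 81.7 to 188 RPKM.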

How the data were processed

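Poly(A) RNA was sequenced from roots and rosettes of 4 lines on 2 media, in 16 groups of 2 libraries. The authors deposited 26 tables of 2 groups each, and the deposited values are on the RPKM scale as judged from the values, since the headers name no unit. The 4 libraries of a table share a common distribution, as read from the values, and a library's values differ between tables. The tables also give the authors' log2 fold changes and, per the file headers, unadjusted p-values of a Z-test. The tools named, without their roles, per the submitters' processing notes are limma 3.26.9, edgeR 3.12.1, Trimmomatic 0.35, bcl2fastq 1.8.4 and Bowtie2 2.0.6, with the genome build TAIR10. No depth is given, so no counting error can be stated.

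Values were analysed as log2(RPKM + 0.5), which understates the change of low genes. A gene entered the test in a tissue when its average reached 0.5 RPKM there, which 20577 genes did in roots and 19521 in rosettes. Fold changes came from the comparison's own table and the spread from all 8 groups of the tissue, moderated with limma 3.58.1 in R 4.3.3 and adjusted by the Benjamini-Hochberg method over all tested genes. In data simulated for IMA1 OE against EYFP on control medium, 66% of changes of 1 and 90% of changes of 2 on the log2 scale were recovered in rosettes, and 72% and 96% in roots. The changed genes were drawn at random from all tested genes, with independent noise and no replicate difference. These shares therefore do not apply to genes of wide spread, such as the PR genes in rosettes, where larger estimates did not pass. For other genes too the shares may be too high, because 50 genes were changed at each size. More genes passed than in the measured comparison (13 in rosettes, 76 in roots), which makes the adjusted threshold easier to reach. Of the unchanged genes, 18 in rosettes and 11 in roots passed in the simulation. Members and lists were chosen with earlier results of these data known. Named genes are all 10 members, list genes that passed or are close relatives of a member, and per tissue the 5 genes most like the members. Alternatives covered the pseudocount, the filter, the table averaging, the spread, the replicate block, the deposited p-values and each library left out. The line comparisons share their EYFP libraries. The bases before the start of 1 member are not reported here.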

Additional observations from a re-analysis of the deposited data

Results flagged for a closer look

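In 3 gene and comparison pairs the 2 groups separated one way in roots and the other way in rosettes, and the difference between tissues was not tested. EDS5 in EYFP on deficient against control medium had a log2 fold change of 0.12 in roots and -0.21 in rosettes, where the root libraries separated only in the comparison's own table. PAD3 in IMA1 OE against EYFP on deficient medium had a log2 fold change of -0.30 in roots and 1.61 in rosettes. EDS5 in IMA3 OE against EYFP on deficient medium had a log2 fold change of -0.11 in roots and 0.32 in rosettes. None of these 6 values passed the threshold of 0.05 in limma.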

How the results depend on the processing

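Of the 26 planned comparisons, 0 had a member past the threshold, and 2 alternatives changed that. With the replicate number as a block, 1 root member passed in opt3-2 on control medium (PAD3), in opt3-2 on deficient medium (FMO1), within IMA1 OE (PAD3), within opt3-2 (PAD3) and in opt3-2 over both media (FMO1). The block also brought 2 rosette members past it in opt3-2 on control medium (PR2 and PR5). Over both media it brought 2 past it in IMA1 OE rosettes (PR1 and PAD4) and 1 in opt3-2 rosettes (PR2). All genes called for opt3-2 on control medium went from 200 to 474 in roots and from 34 to 200 in rosettes. For the other comparisons the share of all genes called with the block is not given here. Their member calls with the block can therefore not be set against a general rise in calls. Same-numbered libraries deviated together with a correlation of 0.0189 to 0.483 over 28 pairs of root groups (median 0.233, 26 over 0.1) and of -0.00956 to 0.566 over 28 pairs of rosette groups (median 0.369, 27 over 0.1). The labels tie the numbers to no shared culture or day and not every pair was over 0.1, so the fit without the block was kept. That fit leaves any difference shared by same-numbered libraries in the spread, so some of its counts of 0 depend on this choice. With the deposited p-values the rosette counts were 3 in IMA1 OE, 1 in IMA3 OE and 4 in opt3-2 on control medium, and 1 in IMA1 OE and 1 in IMA3 OE on deficient medium. The cause was not tested. Over both media, the 1 call in IMA1 OE rosettes (PR1) went to 0 with no filter on low values, where more genes were tested, and to between 0 and 1 with 1 library left out; with the spread of the compared groups only, CBP60G passed in place of PR1. No value reversed. With 2 libraries a group and no depth given, low levels such as those of PR1 in roots could not be compared.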
